A study of Rattus norvegicus with 19 samples.

Results

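The glutathione transferases and antioxidant enzymes of the rat were followed through Leydig cell development on Affymetrix arrays. Members were the probe sets whose single gene symbol names a glutathione transferase (Gsta, Gstk, Gstm, Gsto, Gstp, Gstt, Gstz or Mgst), glutathione peroxidase, peroxiredoxin, superoxide dismutase, thioredoxin reductase, heme oxygenase or quinone reductase, or is Gclc, Gclm, Cat, Gsr, Gss, Txn1 or Srxn1. The rule found 59 probe sets, and with the brightest probe set of each gene it gave 53 of 14217 genes. A further 2 probe sets carry several symbols, Prdx1l1 with Prdx1 and Gsta5 with Gsta2, and are not members. Of the 53 members, 23 are glutathione transferases, the microsomal ones included, and 30 are other enzymes.

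The study set 4 stages of Leydig cell development beside a stem cell of another tissue. Leydig cells lie between the tubules of the testis and make its testosterone. All 19 samples came from Sprague-Dawley rats, with 5 arrays of stem Leydig cells, 3 of progenitor Leydig cells, 4 of immature Leydig cells, 4 of adult Leydig cells and 3 of bone stem cells. No treatment is named for any group, and for ages, culture and isolation the labels hold no entry used here. The labels do not say whether arrays of a group came from separate animals, so the p-values rest on the spread between these arrays alone, part or all of which may be technical.

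Glutathione transferases join the small thiol glutathione to reactive compounds, lipid peroxidation products among them, which makes those compounds soluble. Superoxide dismutases turn superoxide into hydrogen peroxide, and catalase, glutathione peroxidases and peroxiredoxins remove the peroxide. Thioredoxin reductases and glutathione reductase restore the thiols that peroxiredoxins and glutathione peroxidases use. Leydig cells make steroids with mitochondrial and microsomal cytochromes P450, whose electron transfer leaks oxygen radicals, and they are rich in smooth endoplasmic reticulum, where microsomal transferases sit. Many genes of the group are known targets of the transcription factor NRF2 (Nfe2l2), which binds the antioxidant response element.

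A core of that element, TGACNNNGC, was searched on both strands of RefSeq promoters of the GRCr8 build, each from 250 bases before to 50 bases after the gene start. It stood in 3342 of 27457 promoters (12.2%) and in 12 of the 43 member promoters (27.9%), those of Gclm, Gpx2, Gsta1, Gsta3, Gstm5, Gstm7, Gstp1, Gstz1, Hmox2, Prdx4, Prdx5 and Sod2. The steroidogenic factor 1 site AAGGTCA stood in 1201 promoters (4.37%) and in 2 of 43 member promoters (4.65%), Gpx2 and Nqo2. Gpx8, Gsr, Gstm6l, Gstt1, Gstt2, Hmox1, Hmox2-ps1, Mgst2, Prdx6 and Sod3 had no entry. The 4 stretches printed 5′ to 3′ from RefSeq belong to genes that held the core and moved in different directions from stem to progenitor cells: Gstm7, Gstm5 and Gclm were higher in progenitor cells and Gstp1 was lower. Capitals mark the core, which reads on the opposite strand in Gclm, and a match is a description of letters, not a bound site.
Gstm7, 250 bases before the start, chr2:198260320-198260569, - strand: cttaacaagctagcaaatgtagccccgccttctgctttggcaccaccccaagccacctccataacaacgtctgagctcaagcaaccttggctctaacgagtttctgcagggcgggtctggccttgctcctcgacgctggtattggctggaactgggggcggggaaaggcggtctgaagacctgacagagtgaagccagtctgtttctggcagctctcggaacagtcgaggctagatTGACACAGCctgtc
Gstm5, 250 bases before the start, chr2:198219519-198219768, + strand: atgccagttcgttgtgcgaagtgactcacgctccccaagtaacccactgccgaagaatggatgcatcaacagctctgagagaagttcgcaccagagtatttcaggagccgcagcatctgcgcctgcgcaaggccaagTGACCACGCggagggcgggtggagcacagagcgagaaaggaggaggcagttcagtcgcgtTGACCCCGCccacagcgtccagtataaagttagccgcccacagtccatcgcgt
Gstp1, 250 bases before the start, chr1:210769706-210769955, - strand: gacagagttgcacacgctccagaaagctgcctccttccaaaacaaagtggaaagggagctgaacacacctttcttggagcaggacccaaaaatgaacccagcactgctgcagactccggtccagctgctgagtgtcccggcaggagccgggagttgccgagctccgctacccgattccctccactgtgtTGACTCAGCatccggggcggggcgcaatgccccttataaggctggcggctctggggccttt
Gclm, 250 bases before the start, chr2:213031885-213032134, + strand: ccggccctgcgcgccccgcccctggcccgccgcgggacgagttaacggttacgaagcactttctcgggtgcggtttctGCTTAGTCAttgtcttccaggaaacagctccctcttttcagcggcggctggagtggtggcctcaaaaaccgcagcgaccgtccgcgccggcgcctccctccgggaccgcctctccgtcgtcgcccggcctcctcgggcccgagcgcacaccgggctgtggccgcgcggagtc
The first base of the core lies 14 bases before the start in Gstm7, 113 and 53 before it in Gstm5, 61 before it in Gstp1 and 172 before it in Gclm. Members with the core therefore include genes of both directions.

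Values are MAS5 signals, which the authors scaled so that the 2% trimmed mean of each array is 100. Differences are log2 changes of signal + 16, each with its standard error (SE), from limma's moderated test with Benjamini-Hochberg adjustment over all probe sets, and a member was called at an adjusted p under 0.05. Signals of different probe sets are not compared with each other. Median signals of single arrays lay between 18.9 and 36.6, and the number of arrays limits the precision. Of the Leydig markers, 8 of 8 were above 16 in the progenitor, immature and adult groups, and 2 of 8, Star and Nr5a1, in the stem Leydig group, where Cyp17a1 averaged 1.09 and Insl3 15.7. Mesenchymal markers were above 16 for 11 of 11 genes in stem Leydig and in bone stem cells. The 3′ to 5′ signal ratio of actin, a sign of RNA quality, lay between 1.03 and 1.84 on the stem Leydig arrays, between 2.38 and 2.95 on the bone stem arrays and at 6.35 on progenitor replicate 3. In such samples fewer cells of a type and less RNA per cell cannot be told apart.

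From stem to progenitor Leydig cells most of the glutathione transferases rose. The members that fell were Gpx3, Gpx7, Gpx8, Prdx4, Prdx5, Nqo1, Txnrd1, Srxn1, Gss, Hmox1 and the transferases Gstp1 and Mgst2. Of the 53 members, 21 were higher in progenitor cells (39.6%, against 26.8% of all genes) and 12 were lower (22.6%, against 18.5%), and 20 were not called. Of the 23 transferases 15 rose and 2 fell, and of the 30 other members 6 rose and 10 fell. Among those called, 13 rose and 9 fell by at least 2-fold, and 32 of the 33 had groups that did not overlap, the exception being Prdx4. The same counts were not made over all genes, so they do not set the members apart. The median change was 0.04 over the members and 0.08 over all genes. Centring each array on its median moved the median of all probe sets from 0.08 to -0.15. With it 16 members were higher and 14 lower, so the share of higher calls was 53.3% against 63.6% as reported. Of all genes 17.2% were higher and 27.7% lower with centring, against 26.8% and 18.5% as reported. Prdx2, Gclm, Gstm4, Gstz1 and Gsto1 were the members whose rise was then no longer called (adjusted p from 0.0631 to 0.427).

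From progenitor to immature cells few members were called. The 4 members called, Nqo1, Gstk1, Cat and Prdx6, were all higher in immature cells, which is 7.55% of members against 1.33% of all genes higher, and 0 members were lower in limma's test, against 0.612% of all genes. Without adjustment 15 members (28.3%) had a p under 0.05 in either direction, against 15.4% of all genes. With each array centred on its median, or in a fit of only the groups compared, 0 of the 4 calls remained (adjusted p from 0.0724 to 0.135 with centring). Of all genes 1.19% were higher and 0.471% lower with centring. From immature to adult cells, 16 members rose (30.2%, against 12% of all genes) and 3 fell (5.66%, against 17.3%). The median change was 0.35 over the members and -0.06 over all genes. Centring moved the median of all probe sets from -0.07 to 0.11. It gave 24 members higher and 1 lower, a share of higher calls of 96% against 84.2%. Over all genes it moved the shares from 12% higher and 17.3% lower to 17.5% and 9.71%. It ended the calls of Prdx4 (adjusted p = 0.0928) and Hmox2-ps1 (adjusted p = 0.0534), and quantile normalization those of Gstm7, Gstm1, Gpx1, Prdx2 and Prdx3 (adjusted p from 0.0539 to 0.275).

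Adult cells set directly against stem cells, a comparison that shares its arrays with the first and last steps, had 27 members higher (50.9%, against 27.7% of all genes) and 9 lower (17%, against 26%). Of the transferases 17 were higher and 1 was lower, and of the other members 10 were higher and 8 lower. Some difference among the 4 Leydig stages was found by the moderated F-test in 41 of 53 members (77.4%, against 63.9% of all genes). Of these 41 the mean was highest in adult cells for 26 (63.4%), in stem cells for 11, in progenitor cells for 3 and in immature cells for 1. Among all genes called by that test, 28.5% were highest in adult cells and 35.0% in stem cells.

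**Figure D1:**
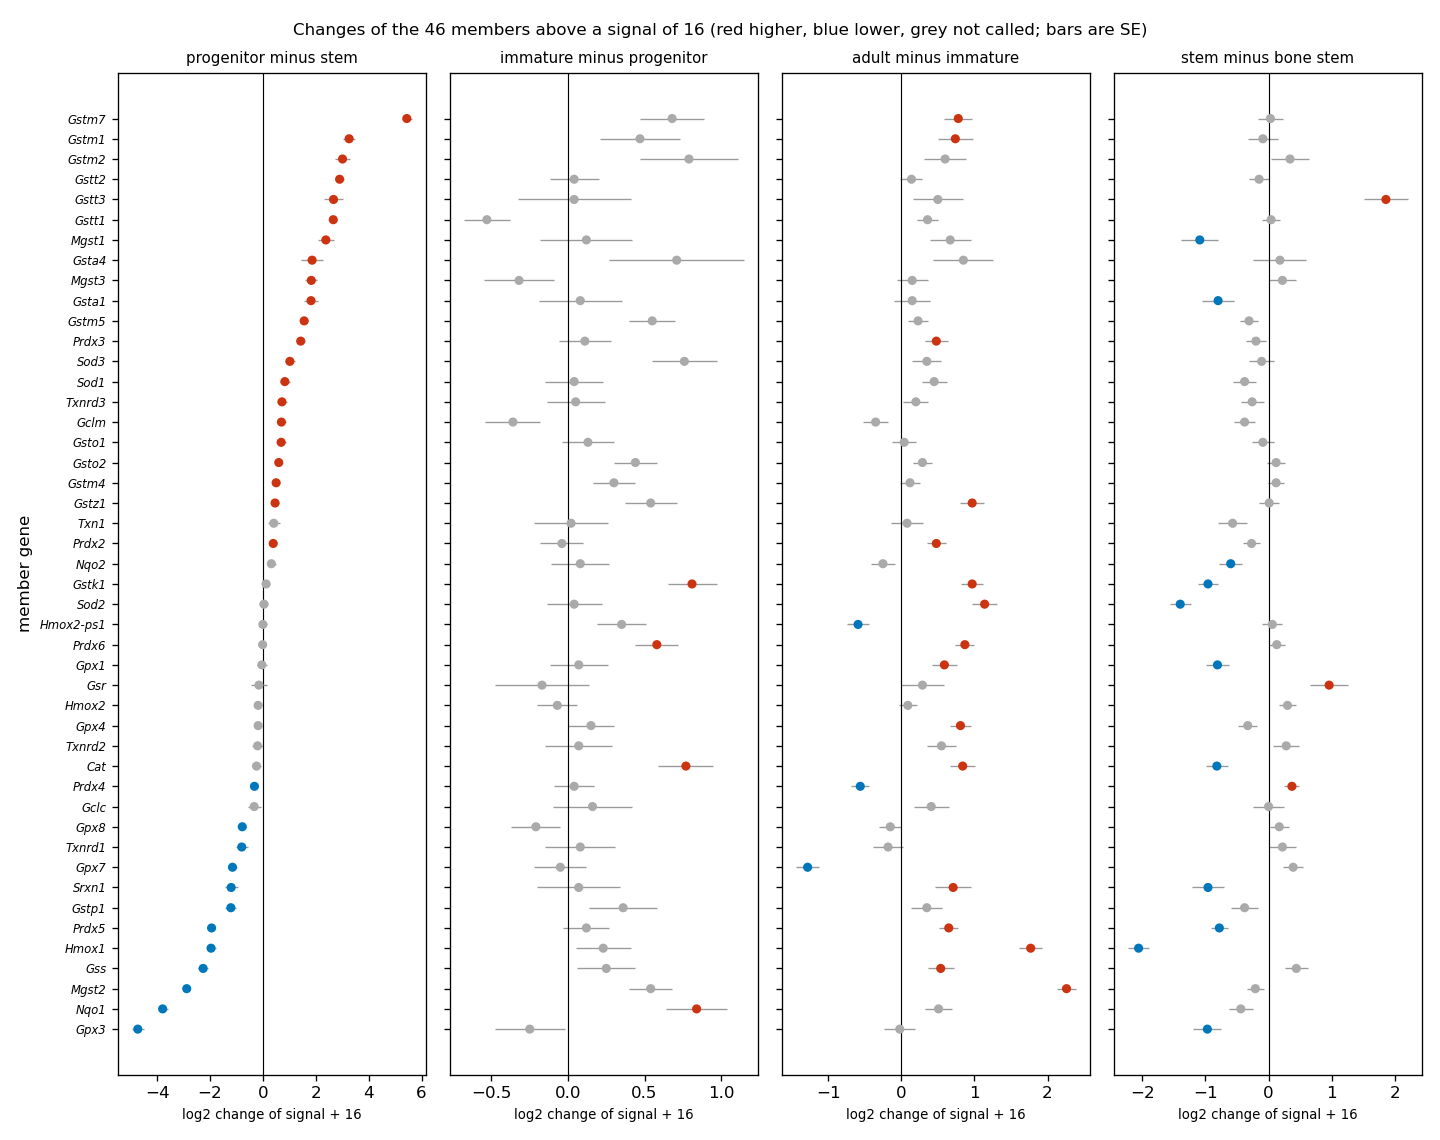
Log2 changes of signal + 16 (x axis, with SE bars) for the 46 members (y axis) above a signal of 16 in some group, in 4 comparisons, with called members in red (higher) or blue (lower) and others in grey. Transferases crowd the top of the first panel, up to 5.44 for Gstm7, and Gpx3 and Nqo1 stand at its foot with -4.73 and -3.79; in the adult step most called members lie to the right of 0.

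The mu-class transferases are cytosolic enzymes that conjugate electrophiles such as epoxides and quinones, and Gstm7 among them had the largest rise of any member at the first step. As a class the 7 mu members had a median change of 1.56 there, and the 3 theta members 2.67. The mu median counts the dim Gstm3 (-0.03) and Gstm6l (0.33), so it does not rank the 2 classes. The other mu members changed by 5.44 (Gstm7), 3.26 (Gstm1), 3.01 (Gstm2), 1.56 (Gstm5) and 0.50 (Gstm4). In the GRCr8 gene table Gstm5, Gstm6l, Gstm7, Gstm3, Gstm2, Gstm1 and Gstm4 lie in this order on chromosome 2, with only further Gstm genes between them. Of these 7 members 5 rose from stem to progenitor cells, 0 fell, and Gstm3 and Gstm6l were under a signal of 16 in every group. The mu genes are close paralogs, and whether a probe set also reads a neighbour was not tested.

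Gstm7 read 23.3, 12.1, 10.7, 14.2 and 8.95 on the 5 stem Leydig arrays, 1502, 1345 and 1002 on the 3 progenitor arrays, 1848, 2566, 2526 and 1429 on the 4 immature arrays, 3589, 2801, 4581 and 3285 on the 4 adult arrays, and 14.8, 10.5 and 13.6 on the 3 bone stem arrays. It was near the bottom of the scale on every stem Leydig and bone stem array and at 1002 or more on every later Leydig array. The log2 change was 5.44 ± 0.20 (adjusted p = 2.35e-14) at the first step and 0.78 ± 0.19 (adjusted p = 0.00514) from immature to adult cells. The step between them gave 0.68 ± 0.21 (adjusted p = 0.128) and was not called.

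Gstm1 read 168, 191, 218, 154 and 194 on the 5 stem Leydig arrays, 1593, 2245 and 1912 on the 3 progenitor arrays, 2036, 2874, 3071 and 2657 on the 4 immature arrays, 4179.6, 3552, 6318 and 4030.1 on the 4 adult arrays, and 371, 133 and 152 on the 3 bone stem arrays. Gstm1 was thus already measured in stem cells, at a mean of 185 ± 25.0 (SD, n = 5), and no later array overlapped them. Its change was 3.26 ± 0.24 (adjusted p = 1.21e-09) at the first step and 4.47 ± 0.22 (adjusted p = 1.17e-12) from stem to adult cells. The adult step of 0.74 ± 0.24 (adjusted p = 0.0292) leaned on single arrays, each left out on its own here and in later such statements: it did not pass without adult Leydig replicate 3, or without immature Leydig replicates 1 or 4 (adjusted p from 0.0549 to 0.12).

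Gstm2 read 254, 199.5, 95.2, 215 and 174 on the 5 stem Leydig arrays, 1884, 2546 and 789 on the 3 progenitor arrays, 2317, 3295, 3366 and 2093 on the 4 immature arrays, 4073, 3410.1, 5649.7 and 3634 on the 4 adult arrays, and 158, 126 and 133 on the 3 bone stem arrays. Progenitor replicate 3 was the lowest of its group, but still above every stem array. Gstm2 changed by 3.01 ± 0.30 (adjusted p = 9.98e-08) at the first step and by 4.40 ± 0.28 (adjusted p = 4.42e-11) from stem to adult cells, and neither later step was called. Gstm5 rose from 503 ± 77.7 to 1508 ± 132 (log2 change 1.56 ± 0.14, adjusted p = 1.95e-08), and Gstm4 rose less, from 125 ± 10.3 to 184 ± 25.0 (log2 change 0.50 ± 0.13, adjusted p = 0.00518). Gstm3 averaged 1.85 ± 0.77 in stem and 11.3 ± 8.78 in adult cells, where 1 array read 24.0, and was called only in that comparison (log2 change 0.56 ± 0.13, adjusted p = 0.00132).

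The theta class, which acts on small halogenated compounds, rose together at the first step, with 3 of 3 members called, and none was called at either later step. Gstt2, Gstt1 and Gstt3 lie close together on chromosome 20 of GRCr8. Gstt2 read 44.1, 22.9, 17.7, 23.8 and 27.9 on the 5 stem Leydig arrays, 309, 319.7 and 276 on the 3 progenitor arrays, 253, 342, 337 and 312 on the 4 immature arrays, 314, 299, 382 and 386 on the 4 adult arrays, and 29.5, 29.3 and 34.1 on the 3 bone stem arrays. The stem and bone stem arrays were all under 50 and the others all over 250. Gstt2 changed by 2.90 ± 0.16 (adjusted p = 9.14e-12), and its second probe set rose as well, by 1.16 (adjusted p = 0.00421).

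Gstt3 read 232, 407, 258, 251 and 252 on the 5 stem Leydig arrays, 1495, 1987 and 2073 on the 3 progenitor arrays, 1652, 1834, 1871 and 2241 on the 4 immature arrays, 2487, 2476, 3382 and 2459 on the 4 adult arrays, and 220.2, 29.5 and 32.0 on the 3 bone stem arrays. Stem replicate 2 was the highest stem array and still under every progenitor array, and bone stem replicate 1 lay far above the other 2 bone stem arrays. Gstt3 rose by 2.67 ± 0.35 (adjusted p = 4.02e-06) at the first step. Gstt1 rose from 80.9 ± 13.1 to 596 ± 83.4 (log2 change 2.66 ± 0.14, adjusted p = 8.78e-12), which was its highest stage.

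Of the 4 alpha-class members, 2 were measured above 16 and both rose. Some mammalian alpha enzymes also isomerize steroid intermediates, and Gsta4 is known for conjugating the lipid peroxidation product hydroxynonenal. Gsta4 read 317, 277, 335, 181 and 268 on the 5 stem Leydig arrays, 959.9, 955 and 1173 on the 3 progenitor arrays, 1714, 1851, 1836 and 1372 on the 4 immature arrays, 2639, 2856, 4098 and 2786 on the 4 adult arrays, and 935, 112 and 116 on the 3 bone stem arrays. Every stage lay above the one before it, although only the first step was called, with 1.86 ± 0.42 (adjusted p = 0.00138). From stem to adult cells Gsta4 changed by 3.42 ± 0.39 (adjusted p = 2.68e-07). Gsta1 rose from 978 ± 239 to 3464 ± 811 (log2 change 1.82 ± 0.26, adjusted p = 1.05e-05) and averaged 4086 ± 1142 in adult cells.

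**Figure D2:**
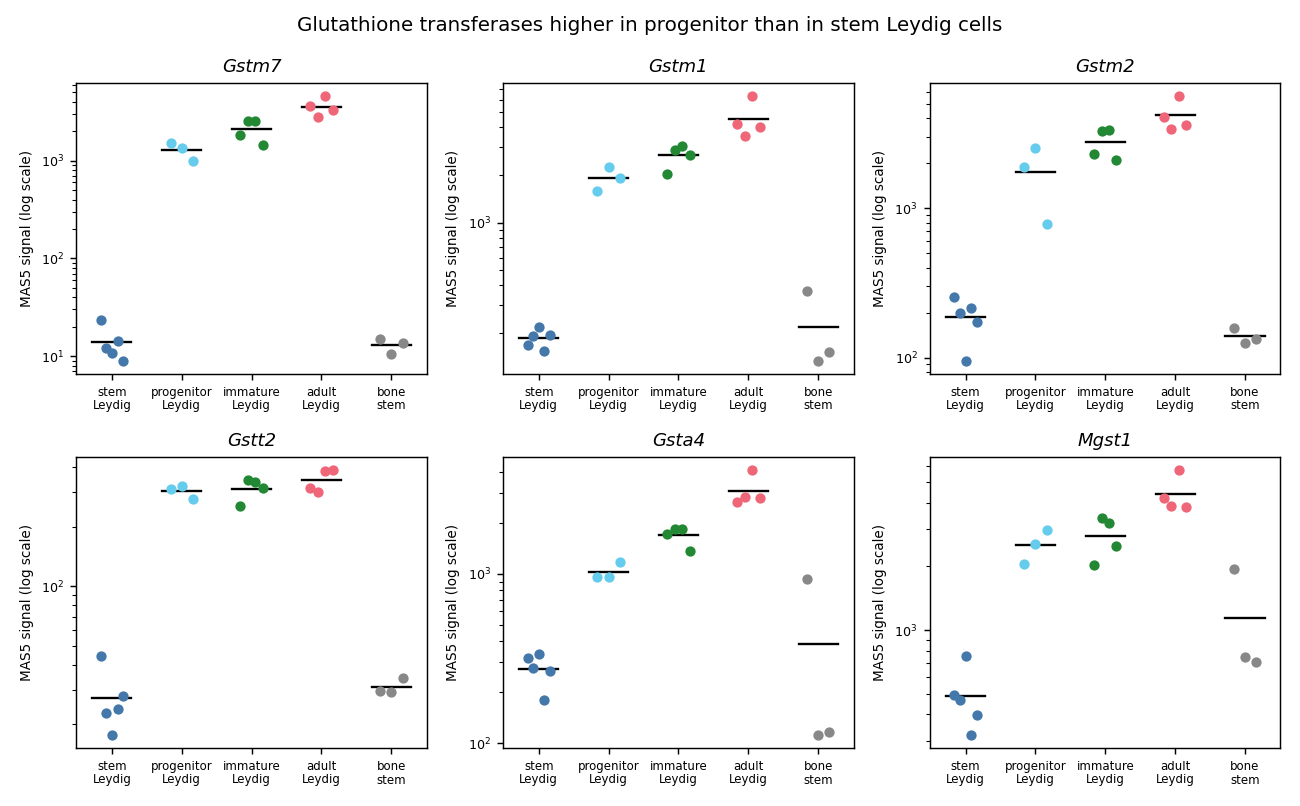
MAS5 signal (y axis, log scale) of 6 glutathione transferases on each of the 19 arrays, by group (x axis), with each dot an array and each line a group mean. In all 6 panels the progenitor, immature and adult dots lie above every stem Leydig dot, and Gstm7 goes from 23.3 or less to 1002 or more.

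The smaller transferase classes differed in timing. Gsto1 and Gsto2, omega enzymes that reduce dehydroascorbate and are neighbours on chromosome 1 of GRCr8, both rose at the first step, by 0.69 ± 0.17 (adjusted p = 0.00242) and 0.60 ± 0.14 (adjusted p = 0.00145). Gstz1, the maleylacetoacetate isomerase of tyrosine breakdown, averaged 93.1 ± 18.9 in stem and 133 ± 16.7 in progenitor cells, then 205 ± 49.2 (immature) and 410.3 ± 33.4 (adult). Its first step of 0.46 ± 0.16 (adjusted p = 0.028) was lost without progenitor Leydig replicates 2 or 3, or without stem Leydig replicate 2 (adjusted p from 0.0518 to 0.133). The adult step of 0.97 ± 0.16 (adjusted p = 0.00011) passed in every alternative run.

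Gstk1, the kappa enzyme of mitochondria and peroxisomes, was not called at the first step and rose at both later ones. Gstk1 read 140.2, 157, 180.1, 132 and 159 on the 5 stem Leydig arrays, 176, 159 and 169 on the 3 progenitor arrays, 458, 304, 263 and 237 on the 4 immature arrays, 569, 539.5, 681 and 682 on the 4 adult arrays, and 311, 305 and 325 on the 3 bone stem arrays. The progenitor arrays fell among the stem arrays, the immature arrays lay above both, and the adult arrays above those. The changes were 0.81 ± 0.16 (adjusted p = 0.0153) and 0.97 ± 0.15 (adjusted p = 8.53e-05). The first of these was lost without progenitor Leydig replicate 2 (adjusted p = 0.0798), with each array centred on its median (adjusted p = 0.0724), and in a fit of only the groups compared (adjusted p = 0.25).

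Gstp1, the pi-class enzyme that is abundant in many cultured and dividing cells, was the one cytosolic transferase called lower in progenitor cells. Its mean fell from 2075 ± 463 in stem to 876 ± 122 in progenitor cells, later stages averaged 1168 ± 348 (immature) and 1436 ± 88.3 (adult), and the first step was -1.21 ± 0.21 (adjusted p = 0.000119). The adult against stem difference of -0.50 ± 0.20 (adjusted p = 0.0462) had overlapping groups and did not pass without adult Leydig replicates 1, 2, 3 or 4, or without stem Leydig replicates 1, 2, 3 or 5 (adjusted p from 0.052 to 0.121). Its neighbour Gstp3 was under 16 in every group.

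The 3 microsomal transferases, membrane enzymes of the endoplasmic reticulum and mitochondria, went separate ways. Mgst1 read 494, 466, 752, 319.7 and 398 on the 5 stem Leydig arrays, 2047, 2558 and 2984 on the 3 progenitor arrays, 2028, 3376, 3201 and 2503 on the 4 immature arrays, 4213, 3851, 5716 and 3808 on the 4 adult arrays, and 1949.9, 747 and 709 on the 3 bone stem arrays. Mgst1 was higher on every later Leydig array than on any stem array and rose by 2.38 ± 0.29 (adjusted p = 1.27e-06). Mgst3, which can make leukotriene C, rose from 326 ± 170.2 to 1105 ± 31.7 (log2 change 1.83 ± 0.22, adjusted p = 1.1e-06), with stem replicate 3 at 624 against 212 to 291 on the other stem arrays.

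Mgst2, also able to make leukotriene C, fell at the first step and rose at the last. Mgst2 read 1604, 1480.4, 1622, 1182 and 1451 on the 5 stem Leydig arrays, 198, 161 and 197 on the 3 progenitor arrays, 319, 306, 263 and 228 on the 4 immature arrays, 1346, 1343, 1462 and 1407 on the 4 adult arrays, and 1919.5, 1686 and 1505 on the 3 bone stem arrays. Progenitor and immature arrays were all under 320, and stem and adult arrays all at 1182 or more. The first step was -2.88 ± 0.13 (adjusted p = 6.18e-13), the second 0.54 ± 0.14 (adjusted p = 0.0529) and not called, and the last 2.26 ± 0.13 (adjusted p = 3.36e-10). Adult cells differed from stem cells by -0.07 ± 0.12 (adjusted p = 0.691).

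Among the 7 glutathione peroxidases 3 fell at the first step and none rose. Gpx3, the secreted peroxidase found in plasma, had the largest fall of any member. Gpx3 read 1369.9, 1721, 804, 1365 and 1669.7 on the 5 stem Leydig arrays, 33.2, 33.1 and 39.7 on the 3 progenitor arrays, 21.0, 33.1, 46.5 and 14.5 on the 4 immature arrays, 32.9, 28.2, 23.6 and 22.4 on the 4 adult arrays, and 2802, 2646 and 2503 on the 3 bone stem arrays. The stem and bone stem arrays were all above 800 and every later Leydig array was under 50. The change was -4.73 ± 0.22 (adjusted p = 7.49e-13) from stem to progenitor cells and -4.99 ± 0.20 (adjusted p = 3.46e-14) from stem to adult cells, and neither later step was called.

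Gpx7 and Gpx8, peroxidases of the endoplasmic reticulum, also fell, and Gpx7 fell again in adult cells. Gpx7 read 759.6, 690.2, 1080.4, 693 and 746 on the 5 stem Leydig arrays, 379.6, 358 and 300.3 on the 3 progenitor arrays, 378, 273, 266 and 446 on the 4 immature arrays, 142, 125, 128 and 116 on the 4 adult arrays, and 569, 627 and 587 on the 3 bone stem arrays. The stem arrays were the highest of the 4 stages and the adult arrays the lowest, without overlap between any of these groups except progenitor and immature cells. Gpx7 changed by -1.15 ± 0.16 (adjusted p = 9.02e-06) at the first step, by -1.28 ± 0.16 (adjusted p = 5.32e-06) at the last and by -2.48 ± 0.15 (adjusted p = 1.86e-11) from stem to adult cells. Gpx8 went from 1688 ± 275 to 975 ± 136 (log2 change -0.78 ± 0.15, adjusted p = 0.000378). Among the Leydig stages the summed signal of 11 mesenchymal markers was also highest in stem cells, between 14428 and 23347. It lay between 9634 and 12144 on progenitor, 7778 and 13617 on immature and 4552 and 5461 on adult arrays. Bone stem arrays lay between 21871 and 25766. From stem to progenitor cells 2 of the 11 markers were called higher and 7 lower (18.2% and 63.6%, against 26.8% and 18.5% of all genes). The sum of 8 smooth muscle markers lay between 8289 and 17921 on stem, between 2415 and 2741 on progenitor and between 1777 and 3664 on adult arrays, and of these markers 8, 6 and 7 were above 16. Their part in the fall of Gpx3, Gpx7 and Gpx8 was not tested.

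Gpx1, the cytosolic peroxidase, and Gpx4, which reduces phospholipid hydroperoxides in membranes and is abundant in sperm, were called at the adult step alone among the 3 steps. Gpx4 read 1975, 1804, 1951, 1388 and 1929.5 on the 5 stem Leydig arrays, 1464, 1942 and 1382 on the 3 progenitor arrays, 1601, 1744, 1877 and 1801 on the 4 immature arrays, 3206, 2619.9, 3586 and 2984 on the 4 adult arrays, and 2059, 2546 and 2199.7 on the 3 bone stem arrays. All 4 adult arrays lay above all other Leydig arrays, with a change of 0.81 ± 0.14 (adjusted p = 0.000317). The second Gpx4 probe set, with a mean signal of 14.1, was not called at that step (-0.11, adjusted p = 0.747). Gpx1 read 2407, 1461, 1809.5, 1118 and 1882 on the 5 stem Leydig arrays, 1392, 1793 and 1737 on the 3 progenitor arrays, 1453, 1804, 1723 and 1925 on the 4 immature arrays, 2602, 2550.4, 2803 and 2414 on the 4 adult arrays, and 2732, 3195 and 2981 on the 3 bone stem arrays. Gpx1 rose by 0.59 ± 0.17 (adjusted p = 0.0194), without overlap between adult and immature arrays. It did not pass without adult Leydig replicate 3, or without immature Leydig replicate 1 (adjusted p from 0.0559 to 0.0578). Germ cell markers were also higher in adult than in immature cells in sum: 8 of 9 were above 16 in adult cells and 7 of 9 in immature cells, with sums of 1402 to 3217 and 456 to 1140, and Sycp1 averaged 3.78 in adult cells. At the adult step 3 of the 9 were called higher and 1 lower (33.3% and 11.1%, against 12% and 17.3% of all genes). From progenitor cells, with sums of 170.5 to 374.4, to immature cells 5 were called higher and 0 lower (55.6% and 0%, against 1.33% and 0.612%). Gpx4 changed by 0.15 ± 0.15 (adjusted p = 0.797) between those stages. The part of germ cells in the rise of Gpx4 was not tested.

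Each superoxide dismutase ended higher in adult than in stem cells. Sod1, the cytosolic copper and zinc enzyme, and Sod3, the secreted one, rose at the first step, and Sod2, the mitochondrial manganese enzyme, at the last. Sod1 read 1824, 1540.3, 1775, 1204 and 1816 on the 5 stem Leydig arrays, 2277, 3198 and 3277 on the 3 progenitor arrays, 2199, 3211, 3022 and 3636 on the 4 immature arrays, 3822, 3707, 5055 and 3746 on the 4 adult arrays, and 2081, 2198 and 2020.0 on the 3 bone stem arrays. Sod1 rose by 0.83 ± 0.18 (adjusted p = 0.000919), with no stem array reaching the progenitor range. Sod3 read 605, 371, 452, 474 and 458 on the 5 stem Leydig arrays, 1066, 1223 and 685 on the 3 progenitor arrays, 1525, 2003, 2133 and 1125 on the 4 immature arrays, 2096, 1824, 2475 and 2039 on the 4 adult arrays, and 451, 549.9 and 516 on the 3 bone stem arrays. Progenitor replicate 3, the array with the high actin ratio, was the lowest of its group for Sod3 and still above all stem arrays. Sod3 rose by 1.02 ± 0.20 (adjusted p = 0.000404).

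Sod2 read 319, 334, 473, 405 and 307 on the 5 stem Leydig arrays, 388, 425 and 315 on the 3 progenitor arrays, 455, 382, 377 and 334 on the 4 immature arrays, 824, 774, 1011 and 877 on the 4 adult arrays, and 1362, 873 and 795 on the 3 bone stem arrays. The first 3 Leydig stages shared 1 range, from 307 to 473, and the adult arrays all lay above 770. Sod2 rose by 1.14 ± 0.17 (adjusted p = 3.8e-05) from immature to adult cells. Catalase, the peroxisomal enzyme that splits hydrogen peroxide, rose at both later steps. Cat read 476, 646, 427, 502 and 556 on the 5 stem Leydig arrays, 518, 418 and 382 on the 3 progenitor arrays, 782, 709, 729 and 806 on the 4 immature arrays, 1375, 958, 1945 and 1357 on the 4 adult arrays, and 1027, 850.1 and 899 on the 3 bone stem arrays. For Cat the immature arrays lay above all stem and progenitor arrays and the adult arrays above all immature ones. The changes were 0.77 ± 0.18 (adjusted p = 0.0356) and 0.84 ± 0.17 (adjusted p = 0.000932). The first of them was lost without progenitor Leydig replicates 2 or 3, or without immature Leydig replicates 1, 2 or 3 (adjusted p from 0.0776 to 0.151), with centring (adjusted p = 0.0998), and in a fit of only the groups compared (adjusted p = 0.113).

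Erythroid RNA, which carries catalase and Prdx2 transcripts, was present in some groups. Of 6 erythroid markers 1 was above 16 in stem cells, 4 in progenitor and immature cells and 2 in adult cells. Their sum was 15.2 to 61.1 on stem, 3464 to 5397 on progenitor, 2494 to 5363 on immature and 273 to 704 on adult arrays. The part of erythroid RNA in the levels of Cat and Prdx2 was not tested.

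**Figure D3:**
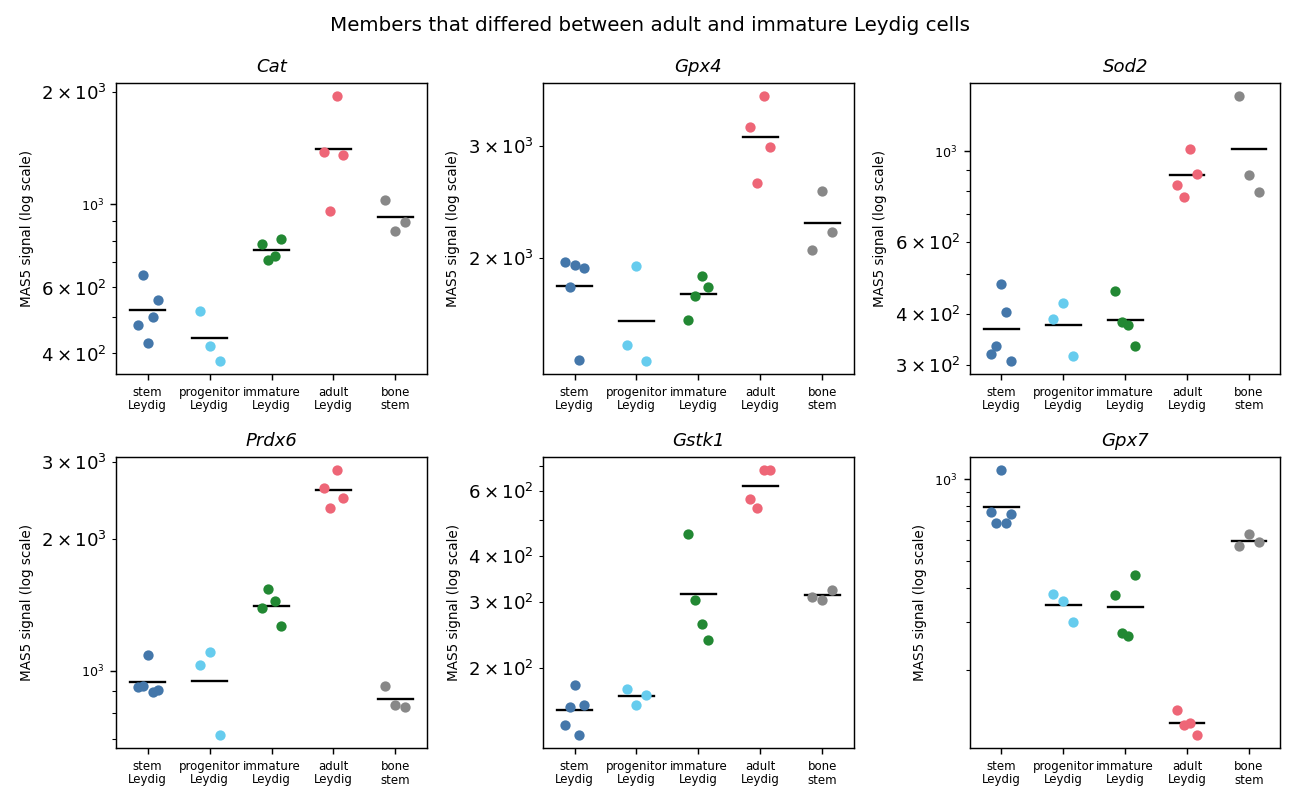
MAS5 signal (y axis, log scale) of 6 members on each of the 19 arrays, by group (x axis), with each dot an array and each line a group mean. In the Cat, Gpx4, Sod2, Prdx6 and Gstk1 panels the 4 adult dots lie above every other Leydig dot, and in the Gpx7 panel they lie below, between 116 and 142.

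The peroxiredoxins, thiol peroxidases of several compartments, differed among themselves in direction and stage. Prdx3, the mitochondrial one, rose from 717 ± 111 to 1962 ± 415 (log2 change 1.43 ± 0.16, adjusted p = 5.44e-07), and its adult step of 0.48 ± 0.16 (adjusted p = 0.0345) was lost without adult Leydig replicates 1, 3 or 4, or without immature Leydig replicates 1 or 4 (adjusted p from 0.0557 to 0.135). The cytosolic Prdx2 rose by 0.39 ± 0.13 (adjusted p = 0.0248) and 0.48 ± 0.13 (adjusted p = 0.0102) at the same steps. The first of these was lost without progenitor Leydig replicates 2 or 3, or without stem Leydig replicates 2 or 4 (adjusted p from 0.0533 to 0.106).

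Prdx6, a peroxidase with phospholipase activity, followed catalase. Prdx6 read 916, 922, 1087, 897 and 904 on the 5 stem Leydig arrays, 1034, 1102 and 714 on the 3 progenitor arrays, 1389, 1540.2, 1444 and 1269 on the 4 immature arrays, 2618, 2354, 2878 and 2489 on the 4 adult arrays, and 922, 835 and 826 on the 3 bone stem arrays. The adult arrays lay above all others, and the immature arrays above all stem and progenitor arrays. Prdx6 changed by 0.58 ± 0.14 (adjusted p = 0.0385) and 0.87 ± 0.13 (adjusted p = 4.56e-05). The first of these was lost without progenitor Leydig replicates 1 or 3, or without immature Leydig replicates 1, 2 or 3 (adjusted p from 0.0594 to 0.177), with centring (adjusted p = 0.135), and in a fit of only the groups compared (adjusted p = 0.371).

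Prdx5, found in mitochondria, peroxisomes and cytosol, fell from 1925 ± 259.8 to 488 ± 13.4 (log2 change -1.94 ± 0.14, adjusted p = 6.21e-10) and rose in part in adult cells, by 0.65 ± 0.13 (adjusted p = 0.00128). Prdx4, the peroxiredoxin of the endoplasmic reticulum, went the other way from the rest in adult cells. Prdx4 read 1401, 1157, 1439, 1070.4 and 1213 on the 5 stem Leydig arrays, 1006, 1160.0 and 845 on the 3 progenitor arrays, 1004, 1002, 952 and 1137 on the 4 immature arrays, 708, 754, 638 and 656 on the 4 adult arrays, and 926, 1004 and 953 on the 3 bone stem arrays. Adult arrays were the lowest, with a change of -0.56 ± 0.12 (adjusted p = 0.00176) from immature cells. The first step, -0.32 ± 0.12 (adjusted p = 0.0469), had overlapping groups and was lost without progenitor Leydig replicates 1 or 3, or without stem Leydig replicates 1, 3 or 5 (adjusted p from 0.0641 to 0.273).

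Srxn1, which repairs overoxidized peroxiredoxins, is a known NRF2 target. Srxn1 read 107, 242, 263, 301 and 228 on the 5 stem Leydig arrays, 89.9, 102 and 66.9 on the 3 progenitor arrays, 96.8, 80.2, 75.9 and 112 on the 4 immature arrays, 188, 164, 133 and 151 on the 4 adult arrays, and 686, 343 and 353 on the 3 bone stem arrays. It fell by 1.20 ± 0.25 (adjusted p = 0.000747) on the log2 scale at the first step and rose by 0.71 ± 0.25 (adjusted p = 0.0457) at the last, and stem replicate 1 was the lowest stem array. The rise was lost without adult Leydig replicates 1, 2, 3 or 4, or without immature Leydig replicates 1, 2 or 3 (adjusted p from 0.0527 to 0.122). Of its other 2 probe sets, the brighter fell at the first step too (-0.97, adjusted p = 0.00376), and the other, with a mean signal of 3.09, was called the opposite way (0.41, adjusted p = 0.0111). At the last step neither was called (0.36, adjusted p = 0.349, and -0.23, adjusted p = 0.184). The mean of all its probe sets was not called there either (0.28, adjusted p = 0.273).

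In the thioredoxin system 1 of 5 members other than peroxiredoxins rose and 2 fell at the first step, Srxn1 among them. Txn1 read 3878, 2765, 2680.2, 1964 and 3143 on the 5 stem Leydig arrays, 2771, 4468 and 4240.5 on the 3 progenitor arrays, 2512, 4146, 4000.0 and 5009 on the 4 immature arrays, 3990.0, 3289, 5280.1 and 3754 on the 4 adult arrays, and 4042, 4398 and 4124 on the 3 bone stem arrays. Txn1, the cytosolic thioredoxin, overlapped between all stages and was called in none of the comparisons. Txnrd1 read 416, 590.0, 410.2, 559 and 572 on the 5 stem Leydig arrays, 294, 332 and 231 on the 3 progenitor arrays, 225, 363, 361 and 269 on the 4 immature arrays, 271, 298, 255 and 232 on the 4 adult arrays, and 709, 330.4 and 334 on the 3 bone stem arrays. Txnrd1, the cytosolic reductase that restores thioredoxin, fell by 0.80 ± 0.22 (adjusted p = 0.00594) on the log2 scale and its second probe set by 1.27 (adjusted p = 0.000832). Txnrd3, a reductase enriched in testis, rose by 0.72 ± 0.18 (adjusted p = 0.00292), and the mitochondrial Txnrd2 was not called in any comparison.

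The 4 enzymes of glutathione synthesis and recycling did not move as one: at the first step 1 rose, 1 fell and 2 were not called. Gclc and Gclm are the catalytic and modifier subunits of glutamate-cysteine ligase, the first and limiting enzyme of synthesis, and Gss is the second enzyme. Gclc read 149, 256, 231, 325 and 269 on the 5 stem Leydig arrays, 230.4, 231 and 121 on the 3 progenitor arrays, 221, 206, 211 and 202 on the 4 immature arrays, 271, 304, 258 and 310.4 on the 4 adult arrays, and 421, 183 and 173 on the 3 bone stem arrays. Gclc was called in none of the comparisons, and its second probe set in none either. Gclm read 83.3, 94.5, 129, 86.5 and 85.0 on the 5 stem Leydig arrays, 162, 158 and 171 on the 3 progenitor arrays, 149.5, 108, 115 and 126 on the 4 immature arrays, 104, 71.7, 110.1 and 93.5 on the 4 adult arrays, and 183, 107 and 106 on the 3 bone stem arrays. The progenitor arrays lay above all stem arrays, a change of 0.70 ± 0.17 (adjusted p = 0.00277). Adult cells differed from stem cells by -0.01 ± 0.16 (adjusted p = 0.971), with overlapping groups.

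Gss read 276, 389, 645, 414 and 456 on the 5 stem Leydig arrays, 71.0, 70.3 and 85.6 on the 3 progenitor arrays, 107, 93.2, 84.0 and 87.7 on the 4 immature arrays, 125, 120.1, 167 and 159.6 on the 4 adult arrays, and 348, 296 and 279.8 on the 3 bone stem arrays. Gss was lower on every later Leydig array than on any stem array. It fell by 2.26 ± 0.18 (adjusted p = 4.3e-09) on the log2 scale and adult cells differed from stem cells by -1.47 ± 0.17 (adjusted p = 3.38e-07). The small adult step of 0.54 ± 0.18 (adjusted p = 0.036) was lost without adult Leydig replicates 3 or 4, or without immature Leydig replicates 2, 3 or 4 (adjusted p from 0.0625 to 0.114). Gsr read 65.2, 90.6, 36.9, 102 and 82.1 on the 5 stem Leydig arrays, 98.4, 92.3 and 24.3 on the 3 progenitor arrays, 71.7, 46.9, 56.1 and 47.0 on the 4 immature arrays, 67.0, 80.3, 71.4 and 65.2 on the 4 adult arrays, and 50.6, 19.9 and 22.7 on the 3 bone stem arrays. Gsr, glutathione reductase, showed wide spread within the stem and progenitor groups and was not called among the Leydig stages.

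Hmox1, the inducible heme oxygenase, and Nqo1, the quinone reductase, are often read as signs of NRF2 activity, and both fell at the first step. Hmox1 read 332, 515, 362, 525 and 615 on the 5 stem Leydig arrays, 108, 117 and 91.9 on the 3 progenitor arrays, 128, 136, 135 and 110.5 on the 4 immature arrays, 475, 364, 567 and 502 on the 4 adult arrays, and 1962, 1988 and 1931 on the 3 bone stem arrays. Progenitor and immature arrays were all under 140, and stem and adult arrays overlapped. Hmox1 changed by -1.96 ± 0.17 (adjusted p = 1.01e-08) at the first step and by 1.77 ± 0.16 (adjusted p = 1.74e-07) at the last. Macrophages, which break down heme, are a known site of Hmox1. The summed signal of 14 leukocyte and macrophage markers lay between 696 and 1168 on stem arrays, between 3294 and 4415 on progenitor arrays, between 2051 and 4484 on immature arrays and between 1607 and 4017 on adult arrays, with 6, 12, 13 and 14 of the 14 above 16. From stem to progenitor cells 8 of the 14 were called higher and 1 lower (57.1% and 7.14%, against 26.8% and 18.5% of all genes). From immature to adult cells 2 were higher and 3 lower (14.3% and 21.4%, against 12% and 17.3%). Single markers took other courses: Cd14, a monocyte receptor, averaged 154 on the stem arrays, 39.3 and 38.4 on progenitor and immature ones and 74.1 on the adult arrays, and Cd163, a macrophage receptor, 3.55 in immature and 21.6 in adult cells. The part of macrophages in Hmox1 was not tested.

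Nqo1 read 2169.5, 2169.8, 1907, 1546 and 2489 on the 5 stem Leydig arrays, 141, 132 and 123 on the 3 progenitor arrays, 417, 227, 215 and 183 on the 4 immature arrays, 358, 399, 354 and 326 on the 4 adult arrays, and 2663, 2920.3 and 2693 on the 3 bone stem arrays. Nqo1 was at 1546 or more on every stem and bone stem array and under 420 on every later Leydig array. The first step was -3.79 ± 0.19 (adjusted p = 2.23e-12) and the second 0.84 ± 0.20 (adjusted p = 0.036), where immature replicate 1 read 417 against 183 to 227 on the other 3 arrays. The second step was lost without progenitor Leydig replicates 1, 2 or 3, or without immature Leydig replicates 1, 2 or 3 (adjusted p from 0.0594 to 0.136), with centring (adjusted p = 0.0944), and in a fit of only the groups compared (adjusted p = 0.332). Nqo2 and the constitutive Hmox2 were not called among the Leydig stages.

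Hmox2-ps1 read 17.2, 13.5, 12.4, 10.9 and 14.8 on the 5 stem Leydig arrays, 9.55, 18.2 and 13.9 on the 3 progenitor arrays, 12.2, 18.8, 29.3 and 29.5 on the 4 immature arrays, 8.24, 9.30, 11.5 and 7.70 on the 4 adult arrays, and 10.2, 12.8 and 14.6 on the 3 bone stem arrays. This probe set is assigned to a heme oxygenase pseudogene and stayed under 30 on every array. It was called lower in adult than in immature cells (log2 change -0.59 ± 0.15, adjusted p = 0.0078), but missed the threshold in a fit of only the groups compared (adjusted p = 0.051). The members under a signal of 16 in every group were Gpx2, Gpx6, Gsta3, Gsta3l1, Gstm3, Gstm6l and Gstp3. Of these 7, only Gstm3 was called anywhere.

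**Figure D4:**
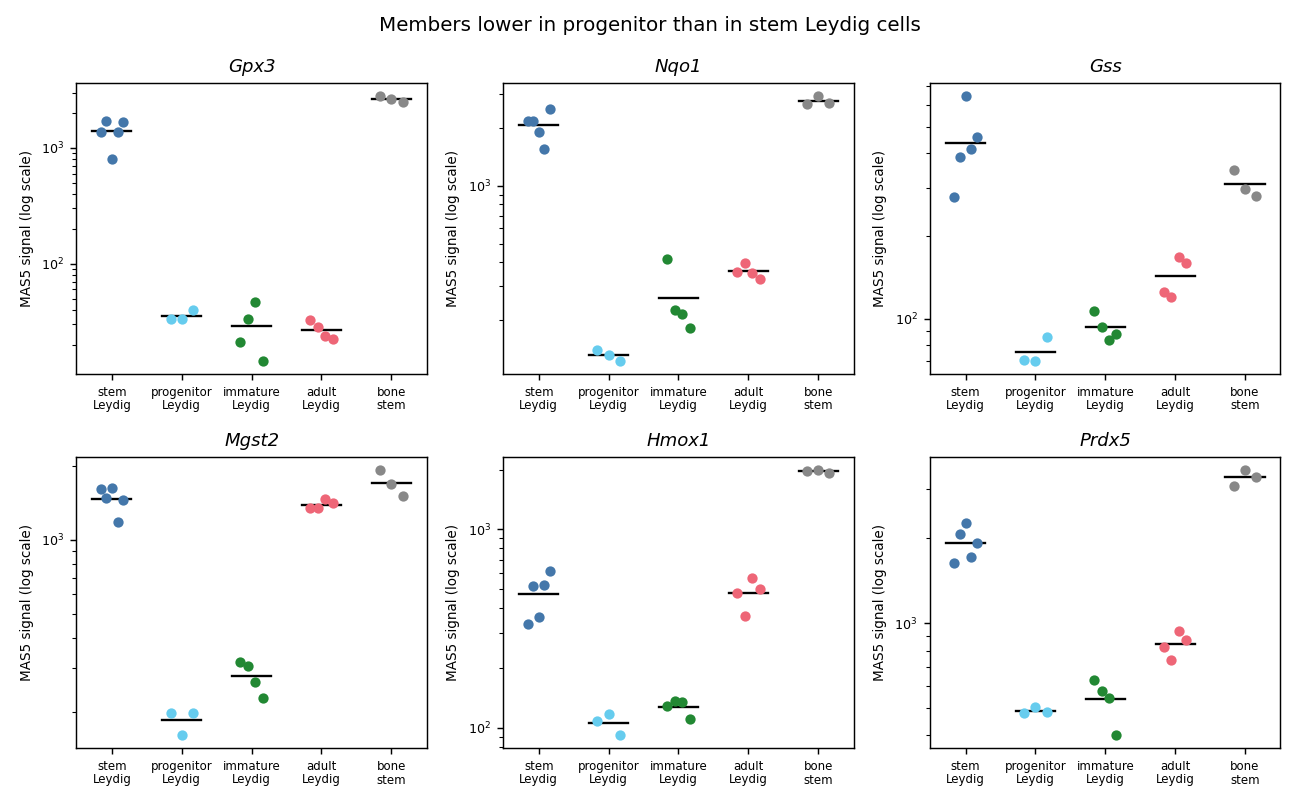
MAS5 signal (y axis, log scale) of 6 members on each of the 19 arrays, by group (x axis), with each dot an array and each line a group mean. Gpx3, Nqo1, Gss and Prdx5 stay below the stem Leydig range at every later stage, while the adult dots of Mgst2 and Hmox1 return to it, at means of 1389 and 477.

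Read across the 3 steps, the members fell into a few courses. The largest, with 16 members, was called higher at the first step only and held 12 of the 23 transferases together with Gclm, Sod1, Sod3 and Txnrd3. Gstm1, Gstm7, Gstz1, Prdx2 and Prdx3 rose at the first and the last step. Gss, Hmox1, Mgst2, Prdx5 and Srxn1 fell at the first step and rose at the last, and for Hmox1, Mgst2 and Srxn1 adult and stem cells were not called different. Cat, Gstk1 and Prdx6 rose at both later steps and Gpx1, Gpx4 and Sod2 at the last alone. Gpx7 and Prdx4 fell at the first and the last step, Gpx3, Gpx8, Gstp1 and Txnrd1 at the first alone, and 13 members were called at no step. Calls are relative to a threshold, so a step that was not called may still hold a change.

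Stem Leydig cells were last compared with bone stem cells, a stem cell of another tissue. Most differences went against the stem Leydig cells: 3 members were higher there (5.66%, against 9.73% of all genes) and 11 were lower (20.8%, against 14.1%). Hmox1 differed most, at 469.8 ± 119 (SD, n = 5) in stem Leydig and 1960.5 ± 28.4 (SD, n = 3) in bone stem cells, a log2 difference of -2.06 ± 0.17 (adjusted p = 1.75e-08). The next largest was Gstt3, higher in stem Leydig cells by 1.86 ± 0.35 (adjusted p = 0.000709), although bone stem replicate 1 read 220.2 beside 29.5 and 32.0. Sod2 was lower in stem Leydig cells, with -1.40 ± 0.17 (adjusted p = 4.41e-06), and the groups did not overlap. Mgst1 was lower, with -1.09 ± 0.29 (adjusted p = 0.0105), but its groups overlapped and the call was lost without bone stem replicate 1 (adjusted p = 0.114). Gpx3 was lower, with -0.97 ± 0.22 (adjusted p = 0.00285) and no overlap. Cat (log2 change -0.82 ± 0.17, adjusted p = 0.00179), Gstk1 (log2 change -0.96 ± 0.16, adjusted p = 0.000137), Gpx1 (log2 change -0.81 ± 0.18, adjusted p = 0.00281) and Prdx5 (log2 change -0.78 ± 0.14, adjusted p = 0.000353) were lower in stem Leydig cells as well, Prdx5 with an adjusted p of 0.157 after quantile normalization.

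Leukocyte and macrophage markers were far higher in the bone stem cells, with sums of 11943 to 15454 against 696 to 1168 in stem Leydig cells, and 13 of 14 against 6 of 14 markers above 16. Cd68 averaged 2094 and Lyz2 3718 there. The part of these cells in the higher Hmox1, Sod2 and Gpx1 was not tested. With each array centred on its median, 1 member was higher and 11 were lower in stem Leydig cells. This makes 8.33% of the calls higher against 21.4% as reported. Of all genes 6.69% were higher and 15.3% lower with centring, against 9.73% and 14.1% as reported.

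Srxn1, Gsr, Gsta1, Nqo2 and Prdx4 also lost their calls when 1 array was left out. Srxn1 was lower in stem Leydig cells, with -0.96 ± 0.25 (adjusted p = 0.0102), and was lost without bone stem replicate 1 (adjusted p = 0.1). Its other 2 probe sets were not called there (0.14, adjusted p = 0.805, and -0.21, adjusted p = 0.272). Nor was the mean of its probe sets (-0.35, adjusted p = 0.188). Gsr was higher by 0.96 ± 0.30 (adjusted p = 0.0285) with overlapping groups and was lost without stem Leydig replicates 2, 4 or 5, or without bone stem replicates 2 or 3 (adjusted p from 0.0562 to 0.161).

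Gsta1 was lower in stem Leydig cells, with -0.80 ± 0.26 (adjusted p = 0.0346), and was lost without stem Leydig replicates 1, 4 or 5, or without bone stem replicates 1, 2 or 3 (adjusted p from 0.0509 to 0.196). Nqo2 was lower in stem Leydig cells, with -0.60 ± 0.18 (adjusted p = 0.0217), and was lost without stem Leydig replicate 1, or without bone stem replicates 1 or 3 (adjusted p from 0.051 to 0.126). Prdx4 was higher by 0.37 ± 0.12 (adjusted p = 0.0398) and was lost without stem Leydig replicates 1, 3 or 5, or without bone stem replicates 1, 2 or 3 (adjusted p from 0.0577 to 0.124).

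Bone stem replicate 1 read more than 1.5 times the higher of the other 2 bone stem arrays for 11 of the 43 members with a group mean of at least 16 (25.6%), against 7.51% of all such genes. These were Gclc, Gclm, Gsr, Gsta1, Gsta4, Gstm1, Gstt3, Mgst1, Sod2, Srxn1 and Txnrd1. Gsta4 read 935 on it and 112 and 116 on the others, and Gclc 421 against 183 and 173. For the other 32 members the highest of the 3 arrays was 1.03 (Hmox1) to 1.67 (Gstt1) times the lowest, with a median of 1.16. No cause was tested, and no p-value belongs to this count.

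**Figure D5:**
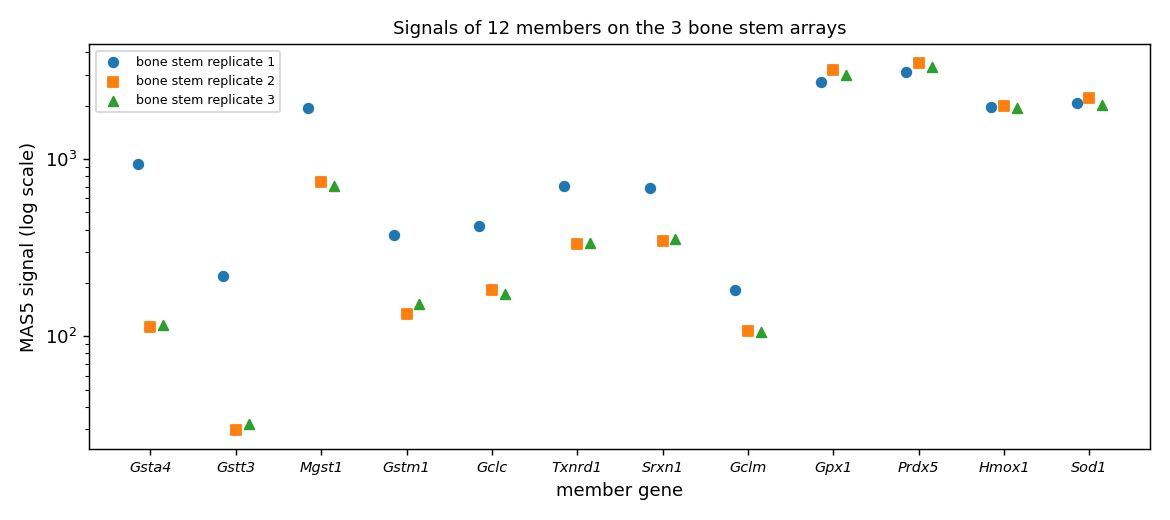
MAS5 signal (y axis, log scale) of 12 members (x axis) on the 3 bone stem arrays, 1 symbol per replicate. Replicate 1 lies above replicates 2 and 3 for the first 8 genes, by the most for Gsta4 at 935 against 112 and 116, and close to them for the last 4.

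Other genes of the same pathways, from 6 lists without any member in them, gave the setting. Of 21 measured NRF2 regulators and other NRF2 targets 10 rose and 2 fell from stem to progenitor cells (47.6% and 9.52%, against 26.8% and 18.5% of all genes), and 9 rose and 1 fell from immature to adult cells (42.9% and 4.76%, against 12% and 17.3%). Ephx1, the microsomal epoxide hydrolase that works beside the transferases, went from 214 ± 48.9 to 1291 ± 279.6 (log2 change 2.50 ± 0.19, adjusted p = 1.19e-09), and Cbr1, a carbonyl reductase, rose by 1.86 ± 0.13 (adjusted p = 2.57e-10). Nfe2l2 itself averaged 1176 ± 154 in stem, 1006 ± 212 in progenitor and 1191 ± 238 in adult cells and was called in none of the comparisons; it falls outside the rule for named genes and was chosen after its values were seen. Tkt and Taldo1, enzymes of the pentose phosphate pathway, rose in adult cells by 0.85 ± 0.13 (adjusted p = 7.72e-05) and 0.83 ± 0.14 (adjusted p = 0.000186).

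Of 19 genes of glutathione supply and turnover 6 rose and 5 fell at the first step (31.6% and 26.3%, against 26.8% and 18.5% of all genes), and 4 rose and 3 fell in adult cells (21.1% and 15.8%, against 12% and 17.3%). Chac1, which degrades glutathione inside cells, fell from 448 ± 68.1 to 27.4 ± 5.06 (log2 change -3.41 ± 0.16, adjusted p = 7.49e-13), and Oplah, which recycles oxoproline to glutamate, rose by 1.82 ± 0.17 (adjusted p = 3.06e-08). In adult cells Cbs, an enzyme of cysteine synthesis, rose from 11.8 ± 4.23 to 62.0 ± 10.6 (adjusted p = 9.08e-07), and Dpep1, a dipeptidase, fell by 1.42 ± 0.24 on the log2 scale (adjusted p = 0.000209). Of 20 thioredoxin and glutaredoxin genes 5 rose and 6 fell at the first step (25% and 30%, against 26.8% and 18.5% of all genes). The rises included Selenop, the plasma selenoprotein, by 2.35 ± 0.32 (adjusted p = 5.45e-06) and Txnip, the thioredoxin inhibitor, by 2.15 ± 0.34 (adjusted p = 3.39e-05). At the adult step 6 rose and 2 fell (30% and 10%, against 12% and 17.3%).

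Of 14 genes of other oxidant defence 10 rose and 2 fell at the first step (71.4% and 14.3%, against 26.8% and 18.5% of all genes), and 4 rose and 1 fell at the last (28.6% and 7.14%, against 12% and 17.3%). Pon3, a lactonase, went from 14.9 ± 3.83 to 875 ± 129 (log2 change 4.85 ± 0.12, adjusted p = 1.28e-16). Of 13 oxidant sources 6 rose and 4 fell at the first step (46.2% and 30.8%), led by the peroxide-forming oxidases Hao2 (log2 change 5.56 ± 0.23, adjusted p = 1.14e-13) and Aox1 (log2 change 4.99 ± 0.23, adjusted p = 7.71e-13). Cyp2e1, a cytochrome P450 that leaks oxidants, averaged 18.3 ± 4.10 in immature and 281 ± 32.0 in adult cells (log2 change 3.12 ± 0.14, adjusted p = 9.07e-12). Of 12 further glutathione enzymes and membrane relatives of the microsomal transferases 3 rose and 2 fell at the first step (25% and 16.7%) and 1 rose and 2 fell at the last (8.33% and 16.7%), shares near those of all genes. At the last step Ptgds, a prostaglandin synthase, rose by 2.44 ± 0.20 (adjusted p = 3.32e-08).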

How the data were processed

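The authors deposited intensities on a linear scale, 1 MAS5 signal from GCOS per probe set and array, per the submitters' processing notes, which name no versions. RNA was taken with Trizol and RNeasy columns and labelled with biotin, per the labels' protocols. Detection calls were not used, and no floor was tested for low signals. The table's 57 control probe sets were left out, and 31042 probe sets were tested. GEO's platform annotation gives 20826 of them 1 symbol, 436 several and 9780 none. All 53 members were found by gene ID in the RefSeq gene table of GRCr8, with 0 symbols differing.

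Signals were taken as log2(signal + 16), which understates the fold change of dim genes. A linear model of 5 group means over all 19 arrays was fitted with limma 3.58.1 (R 4.3.3), with an intensity trend, two-sided tests and Benjamini-Hochberg adjustment over all probe sets. The 3 Leydig steps gave the F-test. The procedure was tested on simulated data. Python 3.11.15, pandas 2.3.3 and matplotlib 3.10.9 made tables and plots.

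Every array's value is given for the 4 largest rises and 4 largest falls among called members of each comparison, and for 18 members whatever their result. Those 18 are Cat, Gpx1, Gpx3, Gpx4, Sod1, Sod2, Sod3, Gclc, Gclm, Gsr, Gss, Hmox1, Nqo1, Srxn1, Txnrd1, Txn1, Mgst1 and Mgst2. From each of the 6 pathway lists, the 2 called genes with the smallest adjusted p in a comparison could be named. The members, the pathway and marker lists and the alternatives were chosen with earlier results of these data known. The alternatives were other scalings, pseudocounts of 1 and 64, dropping the dimmest 40% of probe sets, no trend, array weights, a replicate block, a fit restricted to the groups compared, the mean of a gene's probe sets, leaving out arrays and averaging the closest pairs. A comparison of protein sequences was planned and not run.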

Additional observations from a re-analysis of the deposited data

Results flagged for a closer look

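In groups of 4 or 5 arrays, 12 of 138 combinations of a member and a group held 1 array far from the rest by Dixon's criterion, which chance meets in about 1 of 20. Of the 12 arrays 5 were stem Leydig replicate 3. It read 128.8 for Gclm against 83.3 to 94.5 on the other stem arrays, and 1080.4 for Gpx7 against 690.2 to 759.6. For Gsto1 it read 1077.4 against 643.8 to 731.4, for Mgst3 624.4 against 212.1 to 290.7, and for Prdx6 1087.3 against 896.7 to 921.8. All 5 were high readings.

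Adult replicate 3 gave 4 more, again all high. It read 4098.3 for Gsta4 against 2638.7 to 2855.7, and 3136.2 for Gstm5 against 2375.4 to 2500.3. For Gstt3 it read 3382.5 against 2459.4 to 2486.9, and for Sod1 5055.4 against 3707.2 to 3821.6. It was the highest adult array for 27 of the 45 members with a mean of at least 16 (60.0%), against 27.2% of all such genes. Without it 14 members differed between adult and immature cells by limma, against 19 with it, and all genes were not counted without it. The actin 3′ to 5′ ratio was 2.29 on adult replicate 3, against 1.51 to 1.77 on the other adult arrays. On stem replicate 3 it was 1.84, against 1.03 to 1.22 on the other stem arrays. The arrays flagged once, stem replicate 2, adult replicate 2 and immature replicate 4, had ratios of 1.09, 1.51 and 1.7. The part of RNA quality in these readings was not tested.

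The others stood alone. Gstt3 read 406.9 on stem replicate 2 against 232.1 to 257.6, Gsto2 73.1 on adult replicate 2 against 53.4 to 54.7, and Txnrd2 44.9 on immature replicate 4 against 95.2 to 104.1.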

How the results depend on the processing

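The counts of called members stayed within 1.5 times the reported ones for the steps from stem to progenitor and from immature to adult cells, for adult against stem cells and for the F-test, in every alternative run, and no called member changed direction. The step from progenitor to immature cells changed with the settings. Its 4 called members became 0 with median centring, 0 in a fit of only the groups compared, 11 with array quality weights, 7 without progenitor replicate 3 and immature replicate 4 together, and 1 with the closest pairs of arrays averaged. Leaving out single arrays gave 1 to 9: 9 without immature replicate 4, 2 without progenitor replicate 1, and 1 without progenitor replicate 2 or 3 or immature replicate 1, 2 or 3. Stem Leydig against bone stem cells gave 24 called members with array quality weights, against 14, and 10 to 14 without 1 array. Leaving out 1 array gave 30 to 32 calls for progenitor against stem and 14 to 18 for adult against immature. It gave 35 to 37 for adult against stem and 40 to 42 in the F-test. Of the alternatives, only centring and quantile normalization had their calls counted over all genes. For the others a change in the member count cannot be told apart from a shift of all genes. Calls lost in no alternative numbered 27 of 33, 0 of 4, 10 of 19, 35 of 36 and 7 of 14 in the 5 comparisons in the order stem to progenitor, progenitor to immature, immature to adult, adult against stem and stem Leydig against bone stem.

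With the replicate number as a replicate block, 30 members were called for progenitor against stem, 3 for immature against progenitor, 19 for adult against immature, 36 for adult against stem, 10 for stem Leydig against bone stem and 42 in the F-test. Of 33 pairs of same-numbered arrays, 10 correlated above 0.1 in their deviations from the group means. The range was from -0.338 to 0.296. Differently numbered pairs were not set beside them, so these values cannot settle whether same-numbered arrays belong together. Dim members limit what the arrays show, since 7 were under a signal of 16 in every group.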

Other observations

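Within a group, how often each array was the highest was counted over the members and over all genes. Progenitor replicate 2 was the highest of its 3 arrays for 24 of 45 members with a group mean of at least 16 (53.3%), against 25.9% of all such genes. Stem Leydig replicate 3 was the highest of 5 for 21 of 43 members (48.8%), against 30.5%. Among the immature arrays the counts were 14, 10, 8 and 14 of 46 members for replicates 1 to 4. These are counts over genes of the same arrays, given without a test.

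Some genes of the glutathione and oxidant pathways outside the members differed between stem Leydig and bone stem cells, in both directions. Mt2A, a metallothionein that binds metal ions and radicals, averaged 122.2 ± 67.2 (SD, n = 5) in stem Leydig and 1149.7 ± 735.7 (SD, n = 3) in bone stem cells, with bone stem arrays from 690.5 to 1998.2, a log2 change of -3.01 ± 0.31 in limma (adjusted p = 3.7e-07). Xdh, the oxidase that forms uric acid and superoxide, averaged 50.1 ± 22.9 and 621.1 ± 198.2, a change of -3.28 ± 0.20 (adjusted p = 3.29e-10). Cybb, the catalytic subunit of the phagocyte oxidase, averaged 27.3 ± 6.05 and 1044.6 ± 244.1, a change of -4.60 ± 0.24 (adjusted p = 3e-11), and the leukocyte and macrophage markers were higher in the same arrays, with 13 of 14 above a signal of 16. Their part in these differences was not tested. Ggt5, which splits glutathione conjugates outside the cell, averaged 66.2 ± 19.7 in stem Leydig and 241.5 ± 9.71 in bone stem cells, a change of -1.68 ± 0.19 (adjusted p = 1.95e-06). In all, 3 of 13 oxidant sources were higher and 6 lower in stem Leydig cells (23.1% and 46.2%, against 9.73% and 14.1% of all genes), and 2 of 19 genes of glutathione supply and turnover were higher and 5 lower (10.5% and 26.3%). The higher ones, named after their values were seen, were Maoa (log2 change 1.01 ± 0.14, adjusted p = 3.24e-05), Nox4 (0.86 ± 0.19, adjusted p = 0.00292) and Nox1 (0.78 ± 0.24, adjusted p = 0.0235) among the oxidant sources, and Dpep1 (1.27 ± 0.25, adjusted p = 0.00093) and Chac1 (0.51 ± 0.16, adjusted p = 0.025) in glutathione turnover.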
